A study of Mus musculus with 6 samples.

Results

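The genes described here are 9 components and receptors of the complement system: *C1qa*, *C1qb*, *C1qc*, *C3*, *C4b*, *Cfb*, *Cfp*, *C5ar1* and *C3ar1*, taken by name from the 55538 features of a single-cell RNA-seq count table. Resident peritoneal cells were lavaged from C57BL/6 mice (C57BL/6J in the methods) of 8 to 12 weeks that were *Mertk*+/+ or *Mertk*-/- (the MerKD line, with the efferocytosis receptor MerTK disrupted), with 3 mice pooled per library. Cells that had adhered to plates received either a change of medium (control) or early apoptotic cells (ACs), human Jurkat T cells, at 5 ACs per cell for 2 h or 6 h. Each genotype and condition gave 1 library, so the 6 libraries hold no replicates. In the deposited table the barcodes end in a library number from 1 to 6 that was not matched to a genotype or a time, so no values were compared between genotypes or times, and the numbers below only name libraries without any order.

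Complement is a cascade of plasma and cell-surface proteins that tags particles for uptake. C1q, built from the A, B and C chains, opens the classical pathway and also binds apoptotic cells, C4 and C3 are the thioester proteins that become attached to the target, and factor B and properdin drive and stabilise the alternative pathway convertase. The fragments C3a and C5a released on the way are sensed by the receptors C3aR and C5aR1 on myeloid cells. Most circulating complement comes from the liver, whereas C1q and properdin are made largely by cells of the immune system, and the peritoneal cavity is populated by large peritoneal macrophages (LPMs), which depend on the transcription factor GATA6, and small peritoneal macrophages (SPMs), in which IRF4 and MHC class II are high.

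Cells were assigned to classes by counts of marker unique molecular identifiers (UMIs), none of which is a complement gene. B cells had at least 4 UMIs of *Cd79a* and *Cd79b*, T/NK cells had at least 2 UMIs of *Cd3d*, *Cd3e* and *Nkg7*, and macrophages (MΦs) had at least 2 UMIs of *Csf1r*, *Adgre1* and *Fcer1g* with at most 2 B cell and 1 T/NK cell UMIs. Of 7665 cells kept, 3101 were B cells, 667 were T/NK cells and 2773 were MΦs. MΦs with a UMI of *Gata6* alone (624 cells), *Folr2* alone (103 cells) or *Irf4* alone (236 cells) are called Gata6+, Folr2+ and Irf4+ MΦs below, and 1758 MΦs had a UMI of none of the 3 genes. A UMI of a transcription factor is easily missed, so the last group is a mixture, and Gata6+ MΦs were also the deepest subset, with a median of 5553 UMIs per cell against 4273 in Folr2+ and 4036 in Irf4+ MΦs.

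Markers that had no part in the split mostly followed the names. *Selp*, an LPM marker, stood at 239 UMIs per 1000000 UMIs of the group (CPM) in Gata6+ MΦs, 10.5 CPM in Folr2+ MΦs and 21.8 CPM in Irf4+ MΦs. *H2-Ab1*, an MHC class II chain, stood at 443, 529 and 2568 CPM in the same order, and *Lyve1* at 3.20, 118 and 9.97 CPM. *Mrc1*, listed with the SPM markers, went the other way, at 52.7 CPM in Folr2+ and 25.4 CPM in Irf4+ MΦs. The SPM markers *Retnla* (196, 3071 and 4959 CPM) and *Ccr2* (3.20, 52.7 and 89.8 CPM) were highest in Irf4+ MΦs but were shared by Folr2+ MΦs. Irf4+ MΦs also carried more UMIs of the 5 B cell markers (a summed level of 110 CPM, against 8.28 CPM in Gata6+ MΦs and 4050 CPM in B cells) and of the 7 dendritic cell markers (102 against 15.2 CPM), and B cells themselves hold *Irf4* at 272 CPM. Of the dendritic cell markers *Ccr7* was not specific here. It gave 95.5 of the summed 100 CPM in B cells and 211 of the summed 217 CPM in T/NK cells. In B cells and T/NK cells *Batf3* had 0.75 and 3.49 CPM, *Zbtb46* 1.99 and 2.04 CPM and *Cd209a* 0.30 and 0.29 CPM. In Irf4+ MΦs *Ccr7* had 40.8 CPM, *Batf3* 30.8 CPM, *Zbtb46* 18.1 CPM and *Cd209a* 10.9 CPM. *Flt3* had 1 UMI there, and *Xcr1* and *Clec9a* had 0. The part of B cell or dendritic cell RNA in the values of Irf4+ MΦs was not tested beyond a stricter class limit. That limit allowed MΦs no B cell or T/NK cell UMI and also asked for at least 4 UMIs of the MΦ genes. A change under it therefore cannot be credited to B cell or T/NK cell UMIs alone. It is given where a ratio crossed 2-fold, and ratios that stayed on the same side moved too. Of 5 mesothelial markers all were at 0 in MΦs, and of 5 fibroblast markers 4 were at 0 and the other had 1 UMI.

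Depth was between 4234786 and 10287079 UMIs per library, and the median per kept cell lay between 2783 and 5794 UMIs. Across the libraries 28 barcode sequences (0.362%) occurred more than once. MΦs numbered 666, 350, 225, 690, 325 and 517 in libraries 1 to 6, and their makeup differed: Gata6+ MΦs were from 10.4% to 30.6% of MΦs and Irf4+ MΦs from 3.71% to 20.1%, with libraries 3 and 6 at 19.1% and 20.1%. Library 2 had only 5 Folr2+ MΦs. All intervals below are exact 95% intervals (Poisson for CPM, Clopper-Pearson for shares of cells, conditional binomial for ratios) and cover counting error only, and no p-value was computed because cells are not replicates.

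All 9 genes were far higher in MΦs than in lymphocytes. Between MΦs and B cells 9 of 9 were at least 2-fold higher, beside 18.6% of the 9432 features tested, and between MΦs and T/NK cells 9 of 9 were, beside 17.7% of 9663, and every one was higher in MΦs in 6 of 6 libraries. None was at least 2-fold lower, beside 22.0% and 24.7% of the features. Libraries 4 to 6 held only 58, 46 and 24 T/NK cells, in which *Cfb* had 0 UMIs (intervals up to 15.7, 21.3 and 38.7 CPM). MΦs had 13.5, 6.93 and 7.07 CPM of *Cfb* there, so its direction against T/NK cells is not settled in these libraries. The intervals of *C3* in MΦs and T/NK cells also overlapped in libraries 5 and 6. The median log2 ratio of the 9 genes was 5.50 against B cells and 3.56 against T/NK cells, where that over all features tested was -0.16 and -0.23. The ratios were larger without lymphocytes that carried at least 2 UMIs of 3 MΦ genes or met both lymphocyte limits. This step lowers MΦ genes in lymphocytes by construction, so the rise adds no support. For *C1qb* the log2 ratio was 8.65 beside 5.59 against B cells and 8.99 beside 3.56 against T/NK cells. The value of 8.99 rests on 1 *C1qb* UMI in the 467 T/NK cells left (0.69 CPM, 0.02 to 3.87). All log2 ratios are of pooled CPM with 1 CPM added, and fold values are plain ratios of CPM.

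**Figure D1:**
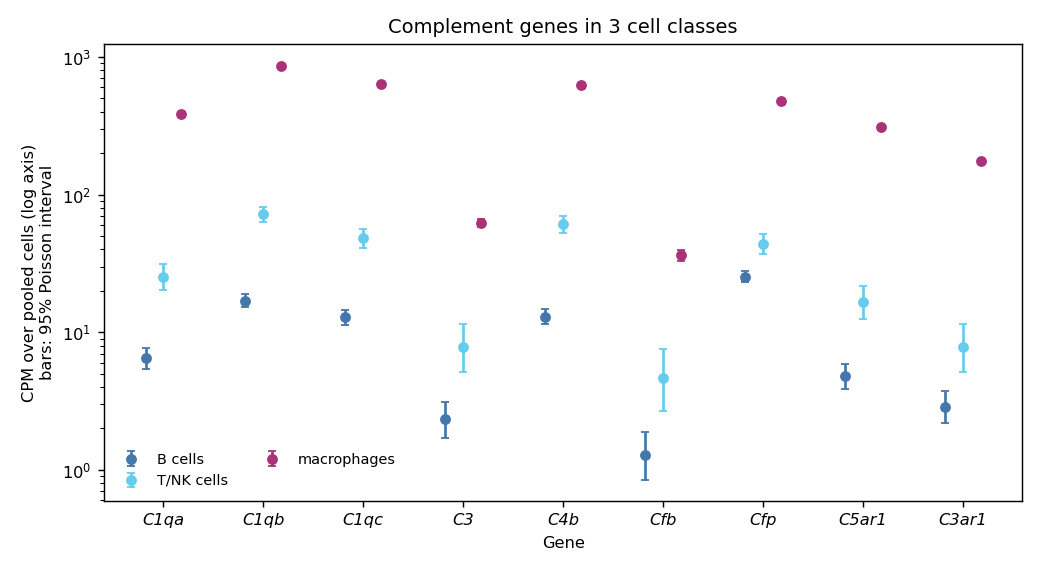
CPM of the 9 complement genes (log axis) over the pooled B cells, T/NK cells and MΦs of 6 libraries, with exact 95% Poisson intervals. MΦs lie above both lymphocyte classes for each gene, with *C1qb* at 860 CPM in MΦs, 72.2 CPM in T/NK cells and 16.9 CPM in B cells.

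The C1q chains were likewise highest in MΦs, while the order of T/NK and B cells was not settled in every library. In T/NK cells of libraries 4 and 6 *C1qa* had 0 UMIs (intervals up to 15.7 and 38.7 CPM), against 6.05 and 0.75 CPM in B cells. The values that follow are pooled. *C1qa* had 385 CPM in MΦs (interval 375 to 396), 25.3 CPM in T/NK cells and 6.47 CPM in B cells, which made it 59.6-fold higher in MΦs than in B cells (50.04 to 71.4). *C1qb* was 50.9-fold higher (45.7 to 56.8) and *C1qc*, at 630 CPM in MΦs, 49.1-fold higher (43.3 to 55.7). At least 1 UMI was found in 61.7% of MΦs for *C1qa*, 81.1% for *C1qb* and 72.2% for *C1qc*, beside 1.58%, 2.39% and 1.90% of B cells, whose median depth was 5561 UMIs against 4426 in MΦs.

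The chains are encoded next to each other on the minus strand of chromosome 4 (GRCm38), *C1qb* at 136880129-136886187, *C1qc* at 136889804-136893065 and *C1qa* at 136895917-136898803, within 18675 bases. No promoter window was matched for *C1qa*, so those of *C1qb* and *C1qc* are shown. The windows run from 250 bases before to 50 bases after the start site (RefSeq, GRCm38.p6), read 5′ to 3′ along the minus strand. The window of *C1qb* is chr4:136886151-136886450 and that of *C1qc* is chr4:136892865-136893164. Capitals mark AGGAAG or its reverse complement, a core that myeloid ETS factors such as PU.1 can bind.
C1qb: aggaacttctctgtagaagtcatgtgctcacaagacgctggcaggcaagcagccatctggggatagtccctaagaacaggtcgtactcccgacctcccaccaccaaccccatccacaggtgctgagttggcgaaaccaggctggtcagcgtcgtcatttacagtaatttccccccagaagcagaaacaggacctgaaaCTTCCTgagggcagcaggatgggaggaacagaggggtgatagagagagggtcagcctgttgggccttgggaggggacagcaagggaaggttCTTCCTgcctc
C1qc: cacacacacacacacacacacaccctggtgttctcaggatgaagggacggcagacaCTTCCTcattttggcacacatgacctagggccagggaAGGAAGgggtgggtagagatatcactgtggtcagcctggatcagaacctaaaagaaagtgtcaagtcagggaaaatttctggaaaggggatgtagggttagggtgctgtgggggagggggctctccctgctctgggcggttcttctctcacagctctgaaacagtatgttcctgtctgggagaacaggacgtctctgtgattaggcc
The *C1qb* window held the motif at 52 bases before and 39 bases after the start site and the *C1qc* window at 194 and 157 bases before it (first base of each match). Among 32851 promoter windows of the same length 35.4% held it on either strand, and 4 of the 6 members with a window did (*C1qb*, *C1qc*, *C3ar1*, *C5ar1*). A match describes letters and not a bound site.

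Within MΦs all 3 chains were found together in 51.0% of cells (49.1% to 52.9%), and none was found in 11.1%. By subset all 3 chains were found in 61.4% of Gata6+ MΦs, 72.8% of Folr2+ MΦs and 34.7% of Irf4+ MΦs. Drawing 1500 UMIs at random from every cell deep enough (620, 100 and 229 cells) lowered these shares to 19.4% (16.3% to 22.7%), 34.0% (24.8% to 44.2%) and 11.8% (7.92% to 16.7%). Folr2+ MΦs thus stayed above the others with non-overlapping intervals, while the intervals of Gata6+ and Irf4+ MΦs overlapped. No chain was found in 25.0% of Irf4+ MΦs and 3.04% of Gata6+ MΦs before thinning, and in 36.2% and 14.5% after it.

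The 3 chains did not follow the same order of subsets. For *C1qa* Folr2+ MΦs had 687, 872, 654, 860.5, 629 and 910 CPM in libraries 1 to 6, Gata6+ MΦs had 426, 358, 335, 456, 308 and 487 CPM, and Irf4+ MΦs had 135, 122, 291, 357, 156 and 278 CPM. Every Folr2+ value lay above every Gata6+ and Irf4+ value, whereas Gata6+ and Irf4+ values overlapped between libraries but not within any. Pooled, *C1qa* stood at 797 CPM in Folr2+ MΦs, 408 CPM in Gata6+ MΦs, 362 CPM in MΦs with none of the 3 genes and 255 CPM in Irf4+ MΦs, with no overlap between the intervals of neighbours.

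*C1qc* showed a different order, with Folr2+ (736 CPM) and Gata6+ MΦs (730.4 CPM) not told apart by their intervals. Gata6+ MΦs had 883, 674, 768, 659.5, 499 and 448 CPM of *C1qc* in libraries 1 to 6 and Irf4+ MΦs had 202, 122, 487, 497, 156 and 315 CPM. The Irf4+ value was lower in each library, and over the pool *C1qc* was 2.09-fold lower in Irf4+ than in Gata6+ MΦs (1.88 to 2.33). That fold is at the edge of the 2-fold limit: the log2 ratio of -1.06 became -0.75 without library 1, -0.99 with the stricter classes and -0.86 where subsets could overlap.

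*C1qb* varied least of the 3 chains, at 1092 CPM in Folr2+, 900.0 CPM in Gata6+ and 704 CPM in Irf4+ MΦs, and the interval of MΦs with none of the 3 genes (830.4 to 870.6 CPM) overlapped that of Gata6+ MΦs. Its log2 ratio of Irf4+ over Gata6+ MΦs was -0.35, lower in 6 of 6 libraries.

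**Figure D2:**
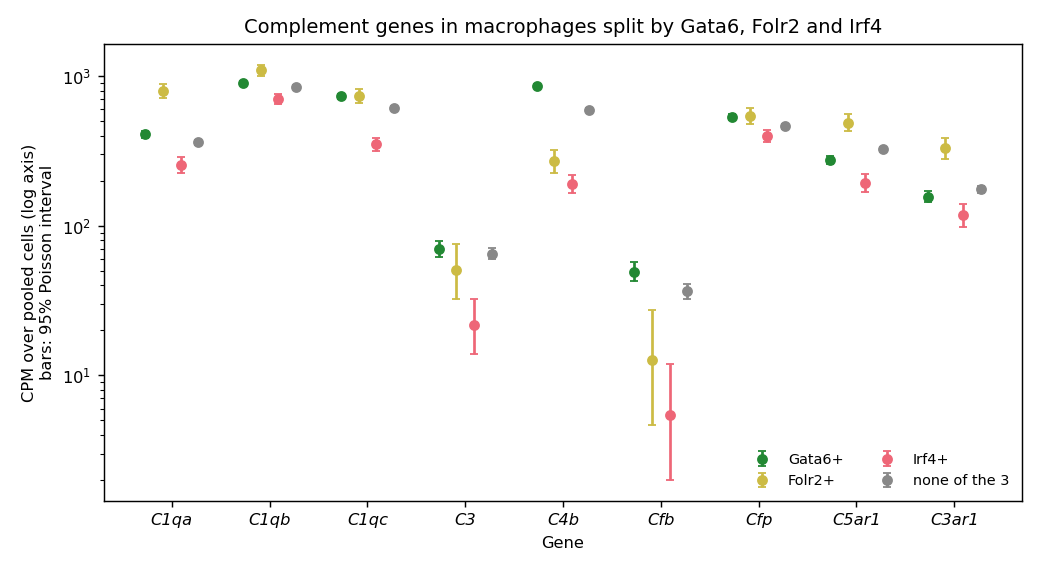
CPM of the 9 complement genes (log axis) over pooled MΦs with a UMI of *Gata6*, *Folr2* or *Irf4* alone or of none of them, with exact 95% Poisson intervals. Irf4+ MΦs have the lowest point for each gene, and Folr2+ MΦs the highest for *C1qa* (797 CPM), *C1qb* (1092 CPM), *C5ar1* (487 CPM) and *C3ar1* (329 CPM). For *C1qc* and *Cfp* the Folr2+ point is also the highest, but its interval overlaps that of Gata6+ MΦs.

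*C4b* and *C3*, the components that become bound to targets, and *Cfb* were lower in Irf4+ than in Gata6+ MΦs. Between Irf4+ and Gata6+ MΦs 4 of the 9 genes were at least 2-fold lower (*C1qc*, *C3*, *C4b* and *Cfb*), beside 8.49% of 8800 features tested, and 0 were at least 2-fold higher, beside 11.3%. All 4 were lower in 6 of 6 libraries, although *C3* and *Cfb* had 0 UMIs in Irf4+ MΦs of libraries 2 and 5. The median log2 ratio of the 9 genes was -0.68 against 0.08 over all features tested. No p-value belongs to these counts, which describe 6 libraries.

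*C4b* had 1058, 1183, 763, 578, 566 and 398 CPM in Gata6+ MΦs of libraries 1 to 6, 386, 54.2, 173, 229, 139 and 138 CPM in Irf4+ MΦs and 275, 484, 141, 291, 222 and 271 CPM in Folr2+ MΦs. Every Gata6+ value was above every Irf4+ value, and Gata6+ exceeded Folr2+ MΦs within each library, although the highest Folr2+ value (library 2, with 5 cells) was above the lowest Gata6+ value. Over the pool *C4b* was 4.49-fold lower in Irf4+ MΦs (3.91 to 5.19) and 3.19-fold lower in Folr2+ MΦs (2.67 to 3.83) than in Gata6+ MΦs. With the stricter classes the log2 ratio of Irf4+ over Gata6+ MΦs was -2.19, beside -2.16.

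The share of cells with a UMI of *C4b* was 83.5% in Gata6+, 43.7% in Folr2+ and 27.1% in Irf4+ MΦs, and after thinning 58.5%, 27.0% and 14.8%. *C4b* lies at 34728380-34743882 on the minus strand of chromosome 17 (GRCm38), 65209 bases from its near-identical neighbour *C4a*, which had 3.70 CPM in MΦs. How reads shared by the pair were assigned is not given in the sources used here, so the split between them is uncertain.

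*C3* was sparser. It had 62.3 CPM in MΦs (58.2 to 66.6), 7.86 CPM in T/NK cells and 2.34 CPM in B cells, and a UMI in 21.1% of MΦs. Gata6+ MΦs had 92.9, 95.3, 96.9, 38.7, 31.3 and 11.2 CPM of *C3* in libraries 1 to 6 and Irf4+ MΦs had 55.1, 0, 33.8, 12.7, 0 and 8.44 CPM. Irf4+ MΦs were lower in each library, with 0 to 10 UMIs per library (a count of 0 allows up to 3), and over the pool *C3* was 3.23-fold lower in them (2.12 to 5.13). The intervals of Gata6+ (70.2 CPM), ungrouped (65.1 CPM) and Folr2+ MΦs (50.6 CPM) overlapped.

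The promoter window of *C3*, at chr17:57228087-57228386 on the minus strand (RefSeq, GRCm38.p6), is shown because *C3* was among the members that varied most between libraries. Its capitals mark the match to TTGCNNAA, a core of C/EBP sites, searched on both strands.
C3: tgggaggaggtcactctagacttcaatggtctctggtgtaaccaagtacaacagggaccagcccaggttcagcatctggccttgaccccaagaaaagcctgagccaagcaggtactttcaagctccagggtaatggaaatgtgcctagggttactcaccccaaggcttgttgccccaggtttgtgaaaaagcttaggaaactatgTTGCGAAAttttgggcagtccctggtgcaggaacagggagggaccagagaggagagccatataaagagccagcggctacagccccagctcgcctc
The match began 45 bases before the start site, and of all 32851 windows 10.8% held this motif. It was found in no other of the 6 members with a window.

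*Cfb*, factor B of the alternative pathway, was the lowest-count member, with 36.1 CPM in MΦs (33.0 to 39.4) and a UMI in 13.2% of them. In libraries 1 to 6 Gata6+ MΦs had 84.1, 62.9, 32.3, 12.2, 13.1 and 11.2 CPM, while Irf4+ MΦs had 6 UMIs in all and Folr2+ MΦs had 6 UMIs in all. *Cfb* was 9.08-fold lower in Irf4+ than in Gata6+ MΦs (4.09 to 25.1), in 6 of 6 libraries. Of these, libraries 2 and 5 had 0 UMIs in Irf4+ MΦs (intervals up to 49.9 and 63.9 CPM). Library 6 had 2 UMIs in each of the 2 subsets. In Folr2+ MΦs *Cfb* was 3.91-fold lower than in Gata6+ MΦs (1.76 to 10.8), in 4 of 6 libraries. Among those, libraries 2 and 5 had 0 UMIs in Folr2+ MΦs (intervals up to 179 and 68.3 CPM). The log2 ratio of Folr2+ over Gata6+ MΦs, -1.89, was -1.09 with libraries weighted equally and -1.14 after thinning. The gene lies at 34856374-34862518 on the minus strand of chromosome 17, 85 bases from *C2*, which had 4 UMIs in MΦs, and the predicted gene *Gm20547* that overlaps it had none.

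**Figure D3:**
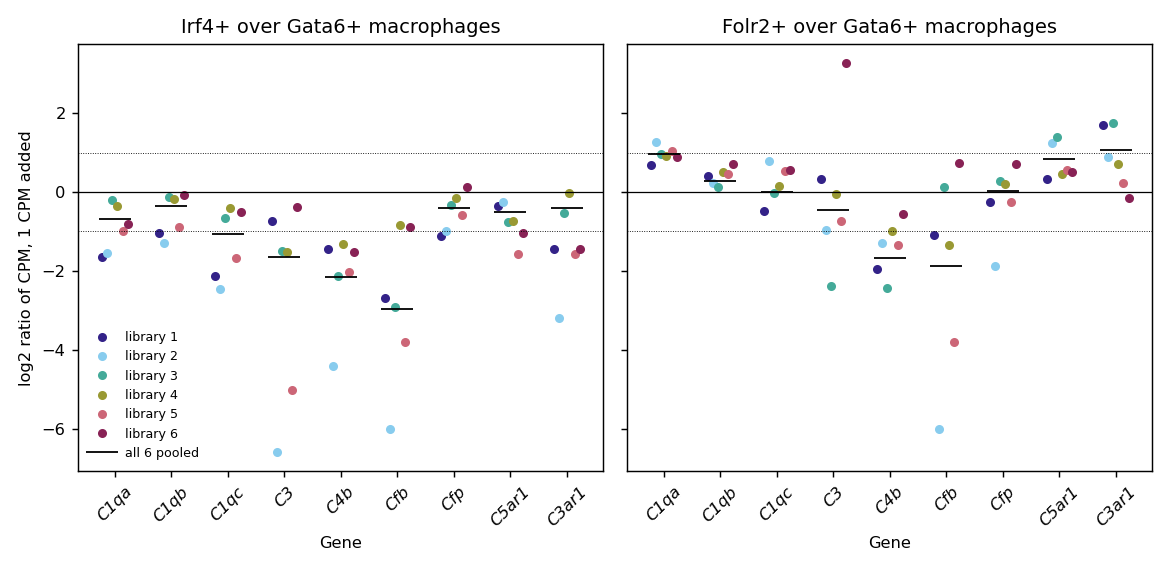
Log2 ratio of CPM (1 CPM added) of Irf4+ over Gata6+ MΦs and of Folr2+ over Gata6+ MΦs for each complement gene, by library (points) and over the pool (black bars), with dotted lines at 2-fold. All 6 points of *C4b* lie under 0 in both panels and all 6 of *C1qa* lie above 0 for Folr2+ MΦs, while the widest spreads belong to *C3* and *Cfb*, where a library's group could hold 0 UMIs.

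Properdin, the product of *Cfp*, differed little between MΦ subsets. *Cfp* had 476 CPM in MΦs and a UMI in 72.6% of them, with 544 CPM in Folr2+, 532 CPM in Gata6+, 460.3 CPM in ungrouped and 399 CPM in Irf4+ MΦs. The intervals of Folr2+ (479 to 614 CPM) and Gata6+ MΦs (509 to 556 CPM) overlapped, and the log2 ratio of Irf4+ over Gata6+ MΦs was -0.41, with library 6 higher and the other 5 lower. *Cfp* lies at 20925454-20931555 on the minus strand of chromosome X.

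Of the 4 subsets (Gata6+, Folr2+, Irf4+ and none of the 3 genes), Folr2+ MΦs had the highest levels of the receptors *C5ar1* and *C3ar1*. *C5ar1* had 295, 581, 918, 399, 463 and 599.95 CPM in Folr2+ MΦs of libraries 1 to 6, 235, 243, 347, 289, 313 and 420.02 CPM in Gata6+ MΦs and 184, 203, 206, 172, 104 and 205 CPM in Irf4+ MΦs. Within each library the order was Folr2+, Gata6+ and then Irf4+ MΦs, and every Irf4+ value was below every Gata6+ value. Over the pool *C5ar1* was 1.78-fold higher in Folr2+ than in Gata6+ MΦs (1.54 to 2.06), a log2 ratio of 0.83 that reached 1.10 without library 4.

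For *C3ar1* Folr2+ MΦs had 334, 242, 477, 299, 241 and 426 CPM in libraries 1 to 6 and Gata6+ MΦs had 102, 131, 141, 181, 206 and 476 CPM. Folr2+ MΦs were higher in 5 of 6 libraries, and library 6, where Gata6+ MΦs reached 476 CPM, was the exception. The pooled ratio was 2.10-fold (1.75 to 2.51), but this value leaned on how many cells each library gave: the log2 ratio of 1.07 was 0.70 with libraries weighted equally, 0.77 without library 1, 0.97 without library 3 and 0.79 after thinning. In Irf4+ MΦs *C3ar1* had 36.7, 13.5, 98.1, 178, 69.3 and 174 CPM, lower than Gata6+ MΦs in 6 of 6 libraries, and the log2 ratio of Irf4+ over Gata6+ MΦs was -0.41 over the pool and -1.11 with libraries weighted equally.

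The window of *C3ar1*, at chr6:122856108-122856407 on the minus strand (RefSeq, GRCm38.p6), is shown because its levels in all MΦs ran opposite to those of *C3* between libraries. Capitals mark a match to TGANTCA, the AP-1 site, and a match to the reverse complement of AGGAAG.
C3ar1: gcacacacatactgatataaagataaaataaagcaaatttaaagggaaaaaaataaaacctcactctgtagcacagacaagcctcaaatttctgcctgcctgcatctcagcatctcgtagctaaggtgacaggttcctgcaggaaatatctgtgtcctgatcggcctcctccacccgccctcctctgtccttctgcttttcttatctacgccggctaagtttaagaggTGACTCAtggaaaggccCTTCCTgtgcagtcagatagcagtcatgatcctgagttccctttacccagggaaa
The AP-1 match, TGACTCA, began 22 bases before the start site, and TGANTCA was held by 7.81% of all 32851 windows and by no other of the 6 members with one. The NF-κB site (1.47% of windows), searched on both strands, was in none of the 6 windows.

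Between Folr2+ and Gata6+ MΦs 1 of the 9 genes (*C3ar1*) was at least 2-fold higher, beside 13.2% of 8767 features tested, and 2 (*C4b*, *Cfb*) were at least 2-fold lower, beside 4.81%. *C1qa*, 1.95-fold higher in Folr2+ MΦs (1.74 to 2.19) and higher in 6 of 6 libraries, was just under the limit and past it without library 1, at a log2 ratio of 1.03. Between Folr2+ and Irf4+ MΦs 6 of 9 were at least 2-fold higher, beside 14.2% of 8850, and 0 lower, beside 8.58%, and the 6 became 4 with the stricter classes, 4 where subsets could overlap and 4 without library 1. *C1qa* (3.13-fold), *C3ar1* (2.79-fold), *C5ar1* (2.53-fold) and *C1qc* (2.11-fold) were higher in Folr2+ MΦs in 6 of 6 libraries.

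The other pair of those 6 rested on few UMIs. *C3* (24 UMIs in each subset) was 2.32-fold higher in Folr2+ than in Irf4+ MΦs (1.26 to 4.27), with a log2 ratio of 1.18 that was 0.58 without library 6, 0.60 with the stricter classes and 0.94 after thinning. *Cfb* (6 UMIs in each) had a ratio whose interval ran from 0.62 to 8.70, and its log2 value of 1.08 was 0.56 without library 3, 0.99 without library 1, 1.83 without library 4, 0.76 with 5 CPM added, 0.95 where subsets could overlap and 2.42 after thinning. *C1qc* too, beside 1.07, came to 0.99 with the stricter classes, 0.90 where subsets could overlap, 0.97 without library 2 and 1.00, just under the limit, without library 1.

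Between libraries, *C3ar1* ran opposite to *C3*, *C4b* and *Cfb*. In MΦs of libraries 1 to 6 *C3* had 98.3, 86.7, 62.9, 33.6, 28.5 and 23.8 CPM, and *Cfb* had 67.5, 59.5, 22.4, 13.5, 6.93 and 7.07 CPM. *C4b* had 829, 861, 430.3, 522, 462 and 274 CPM, and *C3ar1* had 98.5, 128, 187, 181, 205 and 388 CPM. Libraries 1 and 2 held the highest levels of the first 3 genes and the lowest of *C3ar1*, and library 6 held the highest of *C3ar1* and the lowest of *C3* and *C4b*.

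The ratio of the highest to the lowest library was 9.74-fold for *Cfb* (5.06 to 21.5), 4.14-fold for *C3* (2.95 to 5.96), 3.94-fold for *C3ar1* (3.47 to 4.47) and 3.14-fold for *C4b* (2.82 to 3.503). It was 2.12-fold for *C1qb*, 2.02-fold for *C1qc*, 1.66-fold for *C5ar1*, 1.38-fold for *C1qa* and 1.36-fold for *Cfp*. Thus 6 of 9 genes spanned at least 2-fold, beside 35.6% of the 5163 features with at least 20 CPM on average. No libraries here are replicates, so these spans hold genotype, time and library effects that cannot be told apart, and the median depth of MΦs also ran from 2861 UMIs in library 6 to 6247 UMIs in library 1.

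Within Gata6+ MΦs the spans of the 9 genes were about those of all features, with a median log2 span of 1.20 against 1.17. In Gata6+ MΦs alone *C3ar1* ran from 102 CPM in library 1 to 476 CPM in library 6, 4.68-fold (3.54 to 6.14), and *C4b* from 398 CPM in library 6 to 1183 CPM in library 2, 2.98-fold (2.33 to 3.86). *Cfb* spanned 7.51-fold (2.04 to 62.7) and *C3* 8.66-fold (2.15 to 75.6), each with 2 UMIs in library 6. In these fewer cells 5 of 9 genes spanned at least 2-fold, beside 63.2% of all 5049 features with at least 20 CPM.

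**Figure D4:**
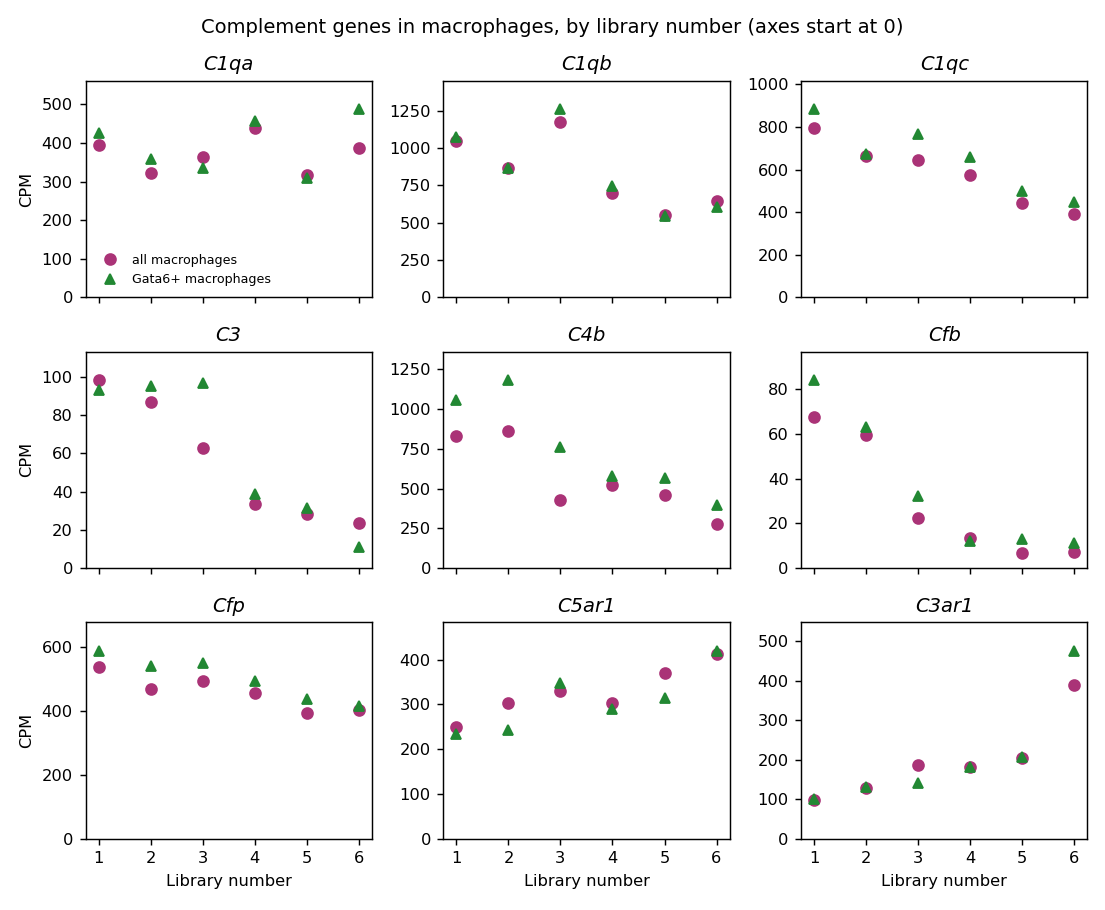
CPM of each complement gene in all MΦs (circles) and in Gata6+ MΦs (triangles) by library number, with each axis from 0. Levels of *C3*, *C4b* and *Cfb* are highest in libraries 1 and 2 in all MΦs, *C3ar1* is highest in library 6 (388 CPM in all MΦs, 476 CPM in Gata6+ MΦs), and *Cfp* and *C1qa* stay within 1.36-fold and 1.38-fold in all MΦs.

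Most complement UMIs of B cells lay in the cells that carried at least 2 UMIs of 3 MΦ genes, except those of *Cfp*. Of the B cells 104 and of the T/NK cells 50 had at least 2 UMIs of *Csf1r*, *Adgre1* and *Fcer1g*, and 153 cells met the limits of both lymphocyte classes. Leaving out all of these, which lowers MΦ genes by construction, left 2847 B cells, in which *C1qb* fell from 16.9 to 1.14 CPM, *C4b* from 13.0 to 0.91 CPM and *C1qa* from 6.47 to 0.34 CPM. That is 0.13%, 0.15% and 0.09% of their levels in MΦs, close to *Lyz2*, a MΦ gene that the selection did not use, at 0.11%.

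Leaving out only the cells with at least 2 UMIs of the 3 MΦ genes took *C1qb* in B cells from 340 to 20 UMIs, while leaving out only the cells of both lymphocyte classes left 331 (alternatives chosen after seeing the data). In T/NK cells the same steps took *C1qb* from 248 to 1 and to 239 UMIs.

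*Cfp* in the same B cells kept 18.6 CPM (16.6 to 20.7) of 25.3 CPM, which is 3.91% of its level in MΦs (3.49% to 4.37%). The 6 libraries had 18.1, 23.8, 10.0, 25.1, 16.2 and 17.5 CPM, and 275 of the 2847 B cells (9.66%) had at least 1 *Cfp* UMI. Each library therefore held *Cfp* in B cells, with library 3 the lowest. After thinning to 1500 UMIs the share was 2.99% (2.39% to 3.69%), where that of *C1qb* was 0.21%.

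The T/NK cells treated in the same way (467 cells) had 3 of 150 *Cfp* UMIs left, 2.08 CPM (0.43 to 6.08), so the level in B cells was 8.93-fold that in T/NK cells (3.03 to 43.5). Leaving out only the cells with at least 2 UMIs of the 3 MΦ genes left 19 *Cfp* UMIs in T/NK cells, 6.29 CPM (3.79 to 9.83). In B cells the same step left 17.9 CPM (16.0 to 19.9). The size of the fold thus depends on also leaving out the cells that met both lymphocyte limits. Among the 275 B cells with *Cfp*, 3 (1.09%) had a UMI of *C1qb* and 27 (9.82%) one of *Lyz2*, against 0.54% and 6.42% of the B cells without it, whose median depth was lower (5166 against 7259 UMIs). *Cd68* (9.54% of its MΦ level) and *Itgam* (2.07%) were likewise above *Lyz2* in these B cells. Doublets were not tested as a source of the *Cfp* UMIs beyond these values.

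**Figure D5:**
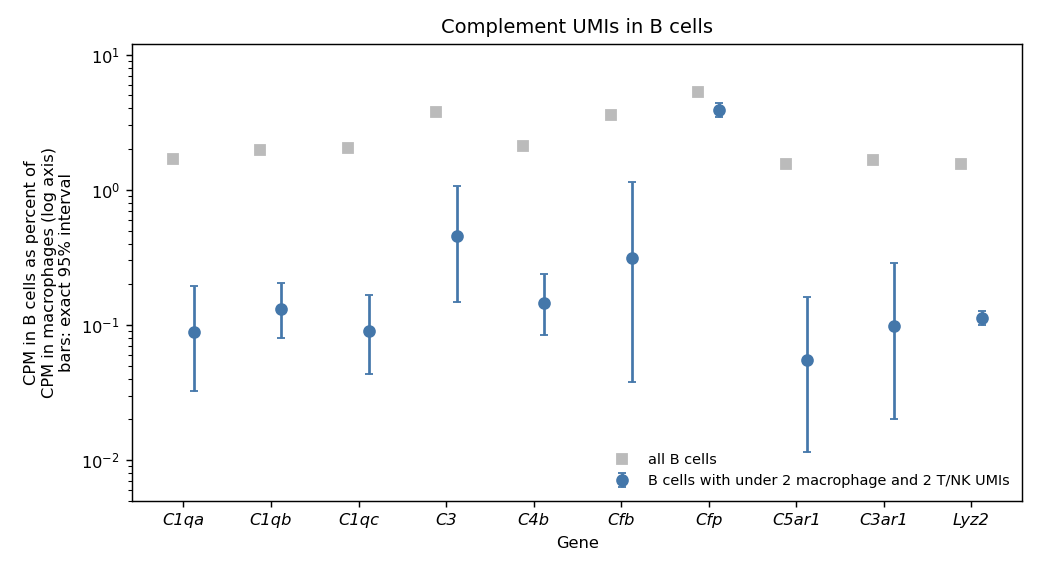
CPM in B cells as a percentage of CPM in MΦs (log axis) for the 9 complement genes and *Lyz2*, in all 3101 B cells (squares) and in 2847 B cells after leaving out those with at least 2 MΦ UMIs or at least 2 T/NK cell UMIs (circles, exact 95% intervals). *Cfp* stays at 3.91% while the other 8 genes fall to between 0.06% and 0.46%.

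Other complement genes were read from a list of 42. No UMI was found in the 3 classes for 14 of them, 17 had UMIs but stayed under 10 CPM in each class, and 11 were above it. Between MΦs and B cells 7 of 11 tested were at least 2-fold higher in MΦs (18.6% of all features), among them *Fcna*, a ficolin of the lectin pathway (405 against 8.36 CPM) and *Cd93* (248 against 4.82 CPM). *Cd55*, the decay-accelerating inhibitor on cell surfaces, went the other way, at 2.03 CPM in MΦs and 47.2 CPM in B cells, 23.2-fold lower in MΦs (16.0 to 35.1), and *C1qbp* was 3.34-fold lower. *Calr*, which binds C1q at the surface of phagocytes, and *Cr1l*, a regulator of convertases, differed by less than 2-fold.

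Some of the listed genes also differed between MΦ subsets. *Vsig4*, the CRIg receptor for C3b, was 4.61-fold lower in Irf4+ than in Gata6+ MΦs (2.36 to 10.3). Of the listed genes 11 had at least 5 CPM on average in this comparison, a set that differs from the 11 above by *C1ra* in place of *Cd55*. Of these, 5 were at least 2-fold lower in Irf4+ MΦs, beside 8.49% of 8800 features, and 1 was higher, beside 11.3%. The latter was *Itgax*, the alpha chain of complement receptor 4, at 235 CPM in Irf4+ MΦs and 1.87 CPM (7 UMIs) in Gata6+ MΦs. *Fcna* was highest in Folr2+ MΦs, at 1490.2 CPM against 361 CPM in Gata6+ MΦs, 4.12-fold (3.76 to 4.52), in 6 of 6 libraries.

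The genes whose levels ran most like each member were ranked by Pearson r of log2 CPM over 24 points (4 MΦ subsets in 6 libraries, which share libraries and depth) among 5280 genes, as a description with no test. *C1qb* was matched most closely by *C1qc* (r = 0.84), then *Ifnar2* and *C3*. *C1qa* was matched by *Rhoc* (r = 0.94), *Timp2* and *Fcgrt*, with *C1qc* at rank 16 and *C1qb* at rank 114. *C4b* ran with *Fn1* (r = 0.93), *Mcemp1* and *F5*, a set in which *Fn1* encodes fibronectin and *F5* coagulation factor V.

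*C3ar1* ran with *Peak1* (r = 0.94), *Mfhas1* and *Grn*, and *C5ar1* with *Cmklr1*, the chemerin receptor, *Dab2* and *Sdcbp*. *C3* ran with *Dram1*, *St3gal4* and *Pstpip2*, *Cfb* with *Itgb7*, *Svil* and *Gm32089*, *C1qc* with *Ifnar2*, *Tcn2* and *Spop*, and *Cfp* with *Pros1*, which encodes protein S, a MerTK ligand, *Mrpl40* and *Pip5k1a*. Among the members themselves *C3* and *C4b* had r = 0.76 and *C1qa* and *C3ar1* r = 0.81, whereas *C4b* and *C5ar1* had r = 0.12.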

How the data were processed

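Peritoneal cells in 6 libraries (1 per genotype and condition, 3 mice pooled in each) had been sequenced with the 10x Genomics platform. The authors aligned reads to mm10 and hg38 with STAR through Cell Ranger (version 2.2 in the submitters' processing notes, another version in the methods) and deposited mouse raw UMI counts of the joined libraries in 1 table, which is the unit used. The annotation used for counting is not given in the sources used here. Positions are from GENCODE vM21 (GRCm38) and promoter windows from RefSeq (GRCm38.p6). Windows were matched for 6 of 9 genes.

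Of 7760 barcodes 7665 were kept, with at least 500 genes, log genes over log UMIs of 0.8 or more and a mitochondrial share no higher than 10%. The methods word the second limit as UMIs per gene, and the log ratio is how it was read here. Scrublet (scanpy 1.11.5) called 63 of them doublets (0.822%), which were kept and left out in an alternative. Counts were summed per class with numpy 2.4.6, divided by class totals (CPM) and compared as log2 ratios with 1 CPM added among features of at least 5 CPM on average. A ratio of at least 2-fold counted as higher or lower, and no test was run. Folds of 4 put into 200 simulated features were called in 98.5% for Irf4+ over Gata6+ MΦs and 90% for Folr2+ over Irf4+ MΦs, where 1.79% and 8.90% of unchanged features were called. Other complement genes were named at 10 CPM or more in a class, and the 3 genes of most similar pattern were named per member. Members, lists and rules were chosen with earlier results of these data known. The B cell detail of *Cfp* by library was added after its values were seen.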

Additional observations from a re-analysis of the deposited data

How the results depend on the processing

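Of 675 log2 ratios recomputed for the 9 genes under the alternatives, 653 stayed on the same side of the 2-fold limit, 18 came under it, 4 passed it and 0 of those past it changed direction. The counts of genes past the limit stayed within 1.5 times except that of genes higher in Folr2+ than in Gata6+ MΦs, which was 1 and became 0 with libraries weighted equally and between 0 and 2 when libraries were left out in turn (0 without library 3, 2 without library 4). Log2 ratios of MΦs over T/NK cells moved by over 1.5 times in fold under several alternatives. Without library 1 *C1qa* was at 4.68 beside 3.87 and *C1qc* at 4.49 beside 3.68. Without library 3 *C3* was at 2.24 beside 2.84. Thinning moved most of the 9, among them *C1qb* (4.53 beside 3.56), *C3ar1* (5.32 beside 4.31), *C5ar1* (5.04 beside 4.13) and *Cfp* (4.28 beside 3.42). Equal weights for libraries moved *C5ar1* to 4.77 and *C3ar1* to 4.96. Leaving out lymphocytes of 2 classes moved these ratios most, for *C1qb* to 8.99. The log2 ratio of *Cfb* in Irf4+ over Gata6+ MΦs, -2.97, was -2.38 with 5 CPM added and -3.56 after thinning. Shares of cells with a UMI moved beyond their intervals in 136 of 702 recomputations. No paired analysis was possible because each genotype and condition has 1 library and library numbers are tied to no label. Depth limits *Cfb* and *C3* in Folr2+ and Irf4+ MΦs most, with 6 and 24 UMIs in each.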

Other observations

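Cells that met the limits of no class (1277 cells, median 2735 UMIs) had less of each of the 9 genes than MΦs and more than B cells, and less than T/NK cells of *C3* (5.12 CPM), *C4b* (44.9 CPM) and *Cfb* (3.03 CPM). They had *C1qb* at 81.3 CPM (73.0 to 90.3), *Cfp* at 59.4 CPM (52.3 to 67.1) and *C3ar1* at 31.9 CPM (26.8 to 37.7). MΦs with UMIs of 2 or 3 of *Gata6*, *Folr2* and *Irf4* (52 cells) had 334 CPM of *C3ar1* (273 to 405) and 417 CPM of *C4b* (349 to 496).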
